A study of Mus musculus with 6 samples.

Results

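The Notch pathway genes described here are the 4 receptors *Notch1*, *Notch2*, *Notch3* and *Notch4*, the ligands *Jag1*, *Jag2*, *Dll1* and *Dll4*, and the target genes *Hes1* and *Hey1*. They were chosen by gene symbol, and all 10 were found among the 23284 genes listed for each sample. Their expression was measured by RNA-seq in osteoblasts (OBs) sorted by cyan fluorescence from ectopic bone on day 10 (n = 3) and day 14 (n = 3) after a collagen sponge loaded with 2.5 μg of recombinant human BMP-2 was placed under the skin of the back. All samples came from male *Col2.3*-ECFP mice aged 12 to 16 weeks, in which a type I collagen promoter drives enhanced cyan fluorescent protein in OBs. The sort selected cells by this fluorescence, and its purity was not tested. Collagenase was applied 1 time to day 10 tissue but 2 times to day 14 tissue, and the effect of the number of digestions and that of the day cannot be told apart. The sorting gates left out CD45+ and dead cells. Replicates 1, 2 and 3 of the later group are all titled day 14, although their descriptions name day 14, 15 and 16. The samples are titled as biological replicates, but the number of mice behind each is not given in the sources used here, and the p-values measure the spread between these samples.

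Notch receptors are single-pass membrane proteins that bind Jagged or Delta-like ligands on a neighbouring cell. Ligand binding exposes the receptor to ADAM proteases and then to γ-secretase, and the released intracellular domain enters the nucleus, where it joins RBPJ and Mastermind-like proteins to switch on target genes, among them the Hes and Hey repressors. In the skeleton, Notch activity is known to hold back OB maturation, Jag1 is a main ligand of the OB lineage, and Hey1 is also a known target of BMP signalling. Dll4 and Notch4 are best known from endothelial cells and Notch3 from the mural cells of vessels.

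The authors deposited FPKM, the fragments per kilobase of exon scaled to the mapped fragments of the sample, which allows levels to be compared between genes of different length. From the steps between low FPKM values, between 4550000 and 7780000 mapped reads were estimated per sample, so that 3 reads on a kilobase correspond to 0.386 to 0.659 FPKM, counting error only. Of the defining OB markers, *Col1a1* was at 14151 to 34157 FPKM and *Ibsp* at 1293 to 25254 FPKM in the 6 samples, and *Sp7*, an OB transcription factor, was at 40.1 to 73.7 FPKM on day 10 and at 4.09 to 27.9 FPKM on day 14. Replicate 2 of day 14 stood apart from the other samples of its day. Its 10 chondrocyte genes summed to 2428 FPKM, while replicates 1 and 3 of that day had 229 and 170 FPKM and the day 10 samples 746 to 1556 FPKM. It also had the lowest myeloid sum (9 genes) at 20.2 FPKM, while replicates 1 and 3 had 247 and 606 FPKM and the day 10 samples 34.8 to 146 FPKM. The OB sum (9 genes) was 62970 FPKM in this sample, against 35045 and 28480 FPKM in replicates 1 and 3, and the osteocyte sum (5 genes) was 452 FPKM, against 165 and 41.5 FPKM. *Ptprc*, which encodes CD45, was at 0.134 to 2.99 FPKM in the 6 samples. Results are therefore given with and without this sample where it changes them.

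The members spanned a wide range of levels in these cells. *Hes1*, a transcriptional repressor of the basic helix-loop-helix class, was the highest at 32.0 to 84.7 FPKM over the 6 samples, followed by *Jag1* and *Notch2*. *Hes1* was above *Jag1* in 6 of 6 samples and their ranges did not overlap. *Jag1* exceeded *Notch2* in 4 of 6 samples, and their ranges overlapped, so the order of these genes is not set. *Notch2* was above *Hey1* in 6 of 6 samples without overlap. *Hey1*, *Notch3* and *Notch1* came next with overlapping ranges between 0.976 and 6.83 FPKM, where *Hey1* exceeded *Notch3* in 4 of 6 samples and *Notch3* exceeded *Notch1* in 5 of 6. *Notch1* was above *Dll1* in 6 of 6 samples although their ranges overlapped, and *Dll1* was above *Notch4* in 6 of 6 without overlap. *Notch4* was above *Dll4* in 6 of 6 samples and *Dll4* above *Jag2* in 4 of 6, both with overlapping ranges. Among all genes listed, the day 10 mean of *Hes1* lay at the 95.7th percentile, that of *Notch2* at the 83.7th, that of *Jag1* at the 82.5th, while *Notch4*, *Dll4* and *Jag2* had the lowest places. The plot of FPKM by sample shows every value.

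**Figure D1:**
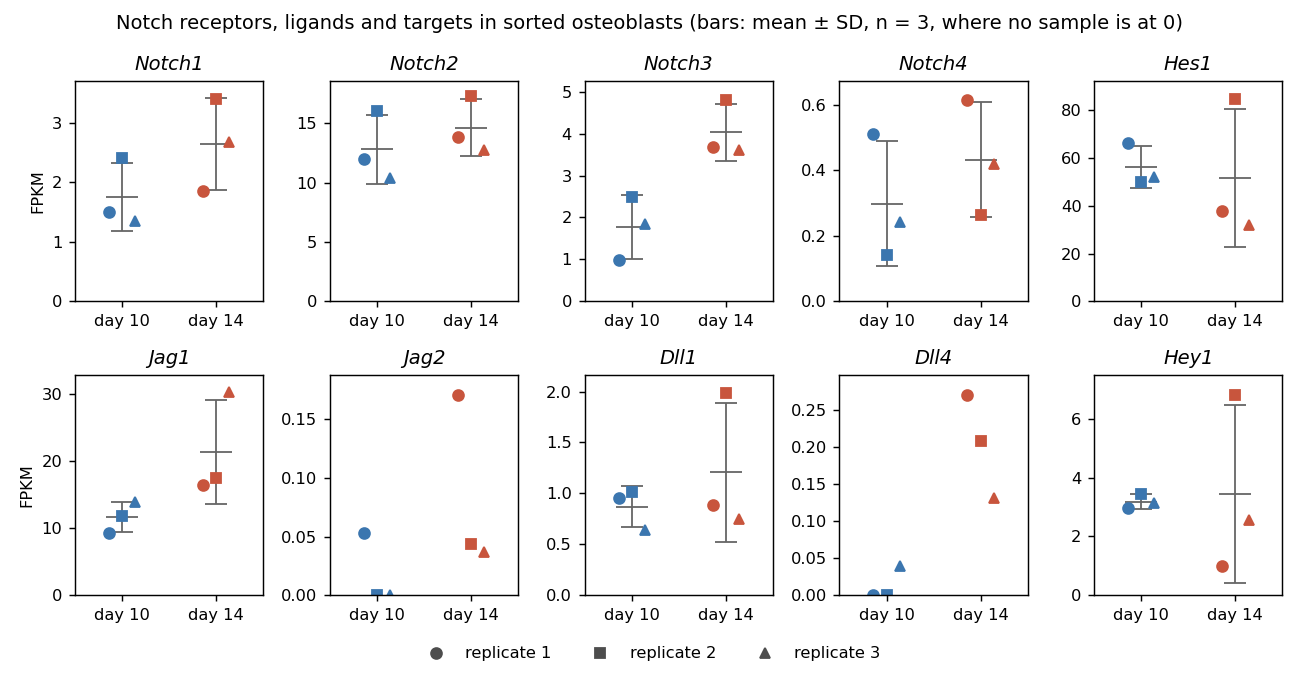
FPKM of the 10 members (vertical axes, linear, each from 0) in the 3 samples of day 10 and the 3 samples of day 14, with a marker shape for each replicate number and bars for the mean ± SD where no sample is listed at 0. The day 14 samples of *Notch3* (3.60 to 4.81 FPKM) and *Jag1* (16.4 to 30.3 FPKM) lie above all day 10 samples, and replicate 2 of day 14 is the highest of all 6 samples for *Notch1*, *Notch2*, *Notch3*, *Dll1*, *Hes1* and *Hey1*.

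*Notch3* was higher on day 14 than on day 10, and it was the receptor with the largest log2 fold change. The gene lies on the minus strand of chromosome 17 from 32120820 to 32166852 (mm10). Replicates 1, 2 and 3 had 0.976, 2.49 and 1.84 FPKM in the day 10 group and 3.67, 4.81 and 3.60 FPKM in the day 14 group. The lowest day 14 sample was above the highest day 10 sample. The means were 1.77 ± 0.759 FPKM (SD, n = 3) and 4.03 ± 0.679 FPKM (SD, n = 3). The log2 fold change was 1.22 with a 95% interval from 0.39 to 2.06 on the scale of log2(FPKM + 0.1), or 2.33-fold. The unadjusted p from limma, a linear model that shares information on the spread across genes, was 0.00956 and the p adjusted over all 19526 genes tested was 0.347, so the difference did not pass the threshold of 0.05 after adjustment. The two-sided exact permutation test gave p = 0.1, the smallest value that 3 samples against 3 allow. Without replicate 2 of day 14 the log2 fold change was 1.09 (adjusted p = 0.361 from limma), and over all leave-one-out fits it ran from 0.87 to 1.503. About 37.3 to 223 estimated reads lay behind each *Notch3* value.

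*Notch2*, known for gain-of-function mutations in a human disorder with bone loss, was the most abundant receptor on both days. It lies on the plus strand of chromosome 3 from 98013527 to 98150361. It had 11.96, 16.0 and 10.4 FPKM in the day 10 samples and 13.8, 17.3 and 12.7 FPKM in the day 14 samples, with overlapping days. The log2 fold change was 0.20, with a 95% interval from -0.29 to 0.68 (adjusted p = 0.824 from limma), which reaches neither a doubling nor a halving. *Notch1*, on the minus strand of chromosome 2 from 26457903 to 26516663, had 1.49, 2.41 and 1.35 FPKM in the day 10 samples and 1.86, 3.39 and 2.68 FPKM in the day 14 samples. The days overlapped, with a log2 fold change of 0.57 and a 95% interval from -0.24 to 1.39 (adjusted p = 0.651 from limma). *Notch4*, on the plus strand of chromosome 17 from 34564268 to 34588503, stayed at 0.142 to 0.615 FPKM over the 6 samples with about 4.96 to 18.9 estimated reads per sample. Its days overlapped (log2 fold change 0.48, 95% interval from -0.94 to 1.89, adjusted p = 0.864 from limma), and the interval of the fold reached from 0.521 to 3.71.

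Within the receptor pool, *Notch3* took a larger share and *Notch2* a smaller share on day 14. Such shares do not move when a whole sample is rescaled. The receptor shares add up to the whole in each sample, so a larger share of *Notch3* lowers the summed share of the others. The results for *Notch3* and *Notch2* are therefore tied and are not independent. *Notch3* made up 6.53%, 11.8% and 13.3% of the summed receptor FPKM in the day 10 samples and 18.4%, 18.7% and 18.6% in the day 14 samples. *Notch2* made up 80.1%, 76.1% and 75.2% on day 10 and 69.2%, 67.1% and 65.5% on day 14. For both receptors the days did not overlap. The mean difference was 8.01 percentage points for *Notch3* and -9.86 for *Notch2* (two-sided exact permutation test, p = 0.1 for each, the smallest value possible, adjusted p = 0.3 over the 9 shares compared). The share of *Notch1* was 10.4% ± 0.884 on day 10 and 12.1% ± 2.43 on day 14, and that of *Notch4* was 1.94% ± 1.38 and 2.09% ± 1.03 (SD, n = 3), with overlapping days for both. The summed receptor FPKM was 13.8 to 21.1 on day 10 and 19.4 to 25.8 on day 14. Mean *Notch2* FPKM was 12.8 on day 10 and 14.6 on day 14, with overlapping days. Its smaller share on day 14 thus did not go with a lower mean level.

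**Figure D2:**
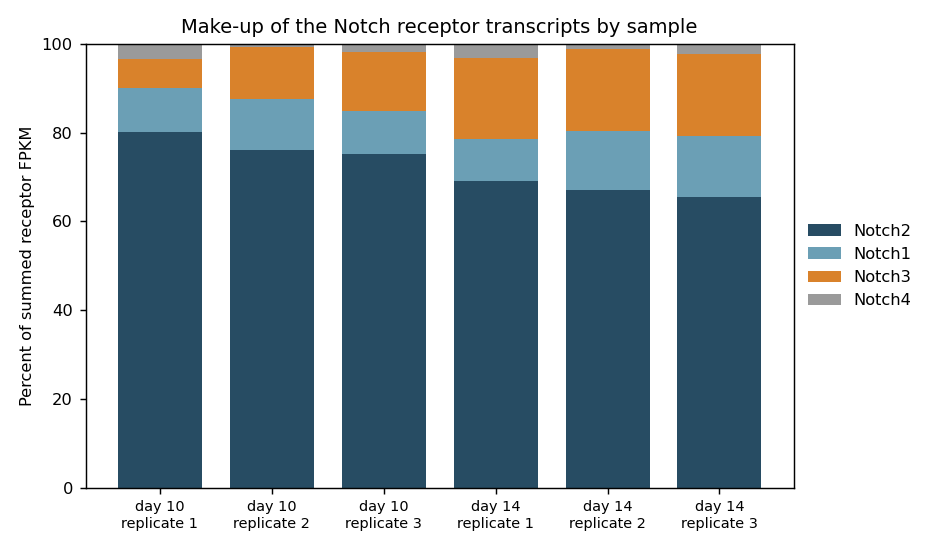
Stacked bars of the percent of the summed receptor FPKM taken by *Notch2*, *Notch1*, *Notch3* and *Notch4* in each of the 6 samples. The *Notch3* segment is 6.53% to 13.3% in the day 10 samples and 18.4% to 18.7% in the day 14 samples.

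*Jag1*, the main ligand in these samples, was also higher on day 14. It lies on the minus strand of chromosome 2 from 137081456 to 137116644. The day 10 samples had 9.34, 11.8 and 13.9 FPKM and the day 14 samples 16.4, 17.5 and 30.3 FPKM, the last value in replicate 3. The days did not overlap. The means were 11.7 ± 2.28 FPKM and 21.4 ± 7.71 FPKM (SD, n = 3). The log2 fold change was 0.83 with a 95% interval from 0.22 to 1.43, or 1.78-fold. The unadjusted p from limma was 0.0133 and the adjusted p was 0.373 (two-sided exact permutation test, p = 0.1). Without replicate 2 of day 14 the log2 fold change was 0.94, and without replicate 3, the highest sample, it was 0.55. Without replicate 1 of day 10 the unadjusted p from limma was 0.0639. *Jag1* made up 88.7% to 97.1% of the summed ligand FPKM in the 6 samples, and its share did not separate the days.

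The other ligands were low. *Dll1*, on the minus strand of chromosome 17 from 15367354 to 15376872, had 0.9503, 1.02 and 0.638 FPKM in the day 10 samples and 0.883, 1.99 and 0.747 FPKM in the day 14 samples. Replicate 2 of day 14 was the highest sample, and the days overlapped (log2 fold change 0.34, 95% interval from -0.76 to 1.43, adjusted p = 0.876 from limma). *Dll4*, on the plus strand of chromosome 2 from 119325784 to 119335962, was listed at 0, 0 and 0.0396 FPKM in the day 10 samples and 0.270, 0.208 and 0.131 FPKM in the day 14 samples. These values correspond to at most 1.09 estimated reads per sample on day 10 and 3.26 to 4.35 on day 14. *Dll4* passed the filter, a mean above 0.1 FPKM over the 6 samples, only through its day 14 values, at a mean of 0.108 FPKM, so no weight is placed on its day difference. Its log2 fold change went from 0.25 with a pseudocount of 1 to 3.59 with a pseudocount of 0.01. *Jag2*, on the minus strand of chromosome 12 from 112907819 to 112929776, was listed at 0.0530, 0 and 0 FPKM in the day 10 samples and 0.171, 0.0438 and 0.0368 FPKM in the day 14 samples, and it did not pass the filter. Between 5 and 13 of 77 ribosomal protein genes were also listed at 0 in each sample, so an exact 0 may be a failed estimate in these files. For *Dll4* and *Jag2*, with at most 4.35 and 3.79 estimated reads in any sample, it can as well be a lack of reads. Which of these holds was not tested.

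Because *Notch3* and *Jag1* were the members with the smallest p and differed in the same direction, the 250 bases before their RefSeq start sites (GRCm38.p6) are shown, with that of the Notch target *Hes5* for comparison. Capitals mark the RBPJ motif GTGGGAA and the GC box GGGCGG, searched on both strands as TTCCCAC and CCGCCC. The *Notch3* window at chr17:32166891-32167140, minus strand, held 4 GC boxes and no RBPJ motif, that of *Jag1* at chr2:137116521-137116770, minus strand, held neither motif and so has no capitals, and that of *Hes5* at chr4:154960673-154960922, plus strand, held 2 RBPJ motifs.
Notch3: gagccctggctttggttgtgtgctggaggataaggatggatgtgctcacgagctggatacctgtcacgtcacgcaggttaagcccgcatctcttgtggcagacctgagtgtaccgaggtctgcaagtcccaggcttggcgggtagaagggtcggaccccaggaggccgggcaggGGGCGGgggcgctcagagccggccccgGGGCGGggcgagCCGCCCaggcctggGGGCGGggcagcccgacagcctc
Jag1: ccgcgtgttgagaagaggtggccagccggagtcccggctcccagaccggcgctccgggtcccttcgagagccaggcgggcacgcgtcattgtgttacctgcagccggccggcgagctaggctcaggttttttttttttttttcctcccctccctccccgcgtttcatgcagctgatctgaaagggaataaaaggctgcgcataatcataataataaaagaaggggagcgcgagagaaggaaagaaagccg
Hes5: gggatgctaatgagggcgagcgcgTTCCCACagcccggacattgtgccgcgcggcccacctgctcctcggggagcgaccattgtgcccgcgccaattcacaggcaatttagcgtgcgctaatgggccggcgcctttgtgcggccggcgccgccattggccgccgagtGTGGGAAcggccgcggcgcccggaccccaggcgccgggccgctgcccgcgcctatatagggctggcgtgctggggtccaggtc
The RBPJ letters occurred in 5.42% and the GC box letters in 32.7% of the 32851 such windows of all genes. The table used held windows for 8 of the 10 members, the 4 receptors and the 4 ligands, but none for the target genes *Hes1* and *Hey1*. Of the 9 windows of the receptors and ligands, 0 held the RBPJ letters and 5 held a GC box. Of 47 other pathway genes, 37 had windows, and those of *Lfng*, *Psen2*, *Rbpjl*, *Spen*, *Hes5*, *Hes7* and *Hey2* held the RBPJ letters in 7 windows of 49. *Hes5* was listed at 0 FPKM in 5 of 6 samples and at 0.120 FPKM in replicate 3 of day 10. A match of letters is a description and says nothing about binding in these cells.

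With all samples, no difference between the days larger than the spread was found for either target gene. *Hes1*, on the plus strand of chromosome 16 from 30064384 to 30067796, had 66.1, 50.1 and 52.2 FPKM in the day 10 samples and 37.8, 84.7 and 32.0 FPKM in the day 14 samples. Replicate 2 of day 14 was the highest of all samples and replicates 1 and 3 were the lowest, with day means of 56.2 ± 8.70 FPKM and 51.5 ± 28.9 FPKM (SD, n = 3). The log2 fold change was -0.25, with a 95% interval from -1.02 to 0.52 (adjusted p = 0.868 from limma). Without replicate 2 of day 14, *Hes1* was lower on day 14 without overlap, with a log2 fold change of -0.68 and a 95% interval from -1.11 to -0.25 (unadjusted p = 0.00809 and adjusted p = 0.210 from limma). *Hey1*, a repressor of the Hairy-related family on the minus strand of chromosome 3 from 8663359 to 8667256, was also highest in replicate 2 of day 14. It had 2.96, 3.46 and 3.15 FPKM in the day 10 samples and 0.985, 6.83 and 2.55 FPKM in the day 14 samples. With all samples the log2 fold change was -0.28 (95% interval from -1.61 to 1.06, adjusted p = 0.931 from limma), and without replicate 2 of day 14 it was -0.95 (95% interval from -1.98 to 0.07, adjusted p = 0.427 from limma), again without overlap. Without that sample, 13.3% of all genes tested were lower on day 14 without overlap and 5.92% were lower with an unadjusted p under 0.05, as *Hes1* was. The 2 members that were higher with such a p were again *Notch3* and *Jag1*, against 6.91% of all genes, and no member had an adjusted p under 0.05, against 0.0410% of all genes. *Hes1* was 12.4 to 38.4 times as high as *Hey1* within a sample, and the highest ratio was in replicate 1 of day 14.

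**Figure D3:**
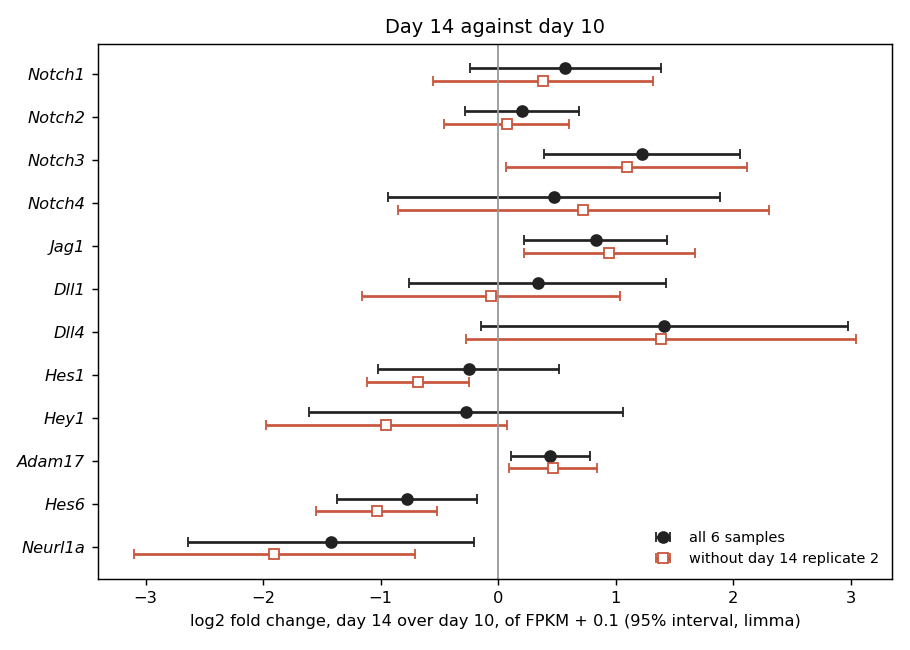
Log2 fold change of FPKM + 0.1, day 14 over day 10, with its 95% interval from limma, for the 9 members that passed the filter and for *Adam17*, *Hes6* and *Neurl1a*, from all 6 samples (filled circles) and without replicate 2 of day 14 (open squares). *Notch3* and *Jag1* lie above 0 in both fits, while *Hes1* moves from -0.25 to -0.68 when that sample is left out.

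*Hes1*, *Hey1* and the chondrocyte genes had their highest day 14 values in replicate 2, and so did all 9 OB markers. From replicate 1 to replicate 3, the chondrocyte sum (229 and 170 FPKM) and *Hes1* (37.8 and 32.0 FPKM) were lower, while *Hey1* (0.985 and 2.55 FPKM) was higher. Among the OB markers, *Ibsp* was at 15632 FPKM in replicate 2, against 3460 and 1293 FPKM in replicates 1 and 3, and *Sp7* was at 27.9 FPKM, against 9.79 and 4.09 FPKM. *Col2a1*, the main cartilage collagen, reached 688 FPKM in replicate 2 of day 14, against 12.1 and 8.75 FPKM in the other replicates and 189 to 373 FPKM in the day 10 samples. *Acan*, the cartilage proteoglycan, reached 45.8 FPKM there, against 2.39 and 3.28 FPKM in replicates 1 and 3 and 20.3 to 25.9 FPKM in the day 10 samples. *Sox9*, the chondrocyte transcription factor, reached 62.7 FPKM, against 32.9 and 33.7 FPKM and 34.3 to 45.1 FPKM. All 10 chondrocyte genes were above 0 in replicate 2, and 8 of the 10 had a lower mean log2 value on day 14. Over all genes tested, 46.5% had a higher one. The part of chondrocyte or OB markers in the *Hes1* and *Hey1* values was not tested, and in sorted bulk samples fewer cells of a type and less RNA per cell cannot be told apart. The ratio of the summed target FPKM to the summed receptor FPKM was 4.62, 2.54 and 4.002 on day 10 and 1.94, 3.55 and 1.78 on day 14.

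**Figure D4:**
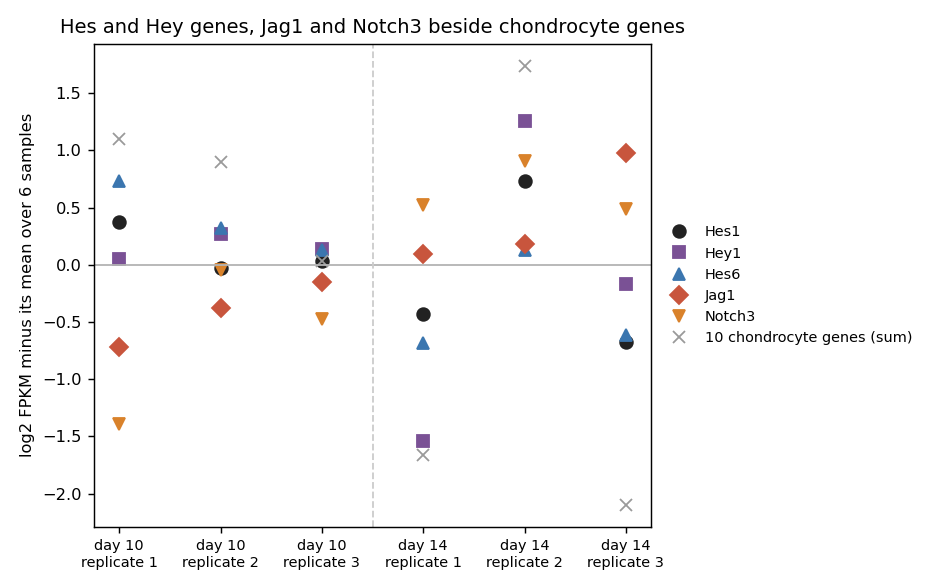
Log2 FPKM of *Hes1*, *Hey1*, *Hes6*, *Jag1* and *Notch3* and of the sum of 10 chondrocyte genes, each minus its own mean over the 6 samples (vertical axis), for each sample (horizontal axis), with a dashed line between the days. In replicate 2 of day 14 *Hes1* (84.7 FPKM), *Hey1* (6.83 FPKM) and the chondrocyte sum (2428 FPKM) are at their highest, while *Jag1* is highest in replicate 3 of day 14.

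Of the 9 members tested, 7 had a higher and 2 a lower mean log2 value on day 14, with a median log2 fold change of 0.48, against -0.04 over all 19526 genes tested, of which 46.5% were higher. *Dll4*, which passed the filter only through its day 14 values, is among these 7 and is counted in the median of the members. No weight is placed on its part in either. No member had an adjusted p under 0.05 from limma, and 0.0154% of all genes tested did. The 2 members with an unadjusted p under 0.05 were *Notch3* and *Jag1*, both higher, where 5.60% of all genes were called in that direction, and no member was lower, against 4.40% of all genes. In 3 members, *Notch3*, *Jag1* and *Dll4*, all day 14 samples were above all day 10 samples, against 7.59% of all genes tested, and *Dll4* had passed the filter through its day 14 values. In no member were all day 14 samples below all day 10 samples, as they were in 6.67% of all genes. The member genes were chosen with results of these data known, and so few genes give no test of the group.

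The summed endothelial genes were higher on day 14 without overlap, while the mural sum overlapped between the days. The 14 endothelial genes summed to 8.89 to 10.1 FPKM on day 10 and to 11.8 to 29.1 FPKM on day 14. The sum was highest in replicate 1 of day 14, where *Flt1* was at 13.8 FPKM. The higher mean of the sum rested largely on *Flt1*, with means of 0.959 FPKM on day 10 and 6.70 FPKM on day 14. *Sox18*, the highest of these genes on day 10, had means of 4.06 and 2.08 FPKM. Of the 13 genes tested, 12 had a higher mean log2 value on day 14, against 46.5% of all genes tested. An unadjusted p under 0.05 was found for *Flt1*, *Emcn*, *Esam* and *Plvap*, which were higher, and for *Sox18*, which was lower. Of all genes tested, 5.60% were higher and 4.40% were lower with such a p. *Emcn* was listed at 0, 0.299 and 0 FPKM on day 10 and passed the filter only through its day 14 values. *Pecam1*, an endothelial adhesion molecule, had 0.268, 0.657 and 0.464 FPKM in the day 10 samples and 1.35, 0.720 and 0.930 FPKM in the day 14 samples. *Cdh5*, the endothelial cadherin, was at 0.0540 to 0.240 FPKM on day 10 and at 0.0892 to 0.752 FPKM on day 14, and *Kdr*, a VEGF receptor, at 0.428 to 0.624 FPKM and 0.289 to 0.959 FPKM. *Dll4*, *Notch4* and the endothelial sum all had their highest value in replicate 1 of day 14. The second highest value of *Notch4* (0.510 FPKM) was in replicate 1 of day 10, where the endothelial sum was the lowest of all samples. With 4.96 to 18.9 estimated reads per sample for *Notch4* and at most 4.35 for *Dll4*, these values cannot order the samples. The 8 mural genes summed to 33.6 to 45.1 FPKM on day 10 and 24.1 to 43.7 FPKM on day 14, and 3 of the 7 tested had a higher and 4 a lower mean log2 value on day 14, with a median log2 fold change of -0.15 and no unadjusted p under 0.05. The mean of the mural sum was lower on day 14 (31.5 against 41.1 FPKM), which rested on *Cspg4* (16.2 against 26.3 FPKM). *Cspg4* was highest in replicate 2 of day 14 at 33.2 FPKM. *Rgs5*, a pericyte gene, was at 0.255 to 1.04 FPKM on day 10 and 0.972 to 1.502 FPKM on day 14, while *Kcnj8* and *Abcc9*, which encode a potassium channel of pericytes, overlapped between the days at 0.141 to 1.44 FPKM. *Emcn*, *Cldn5* and *Sox17* were each listed at 0 in 2 samples and *Erg* in 1 sample, and the mural gene *Higd1b* was listed at 0 in 5 samples. The part of such cells in the *Notch3*, *Notch4*, *Jag1* and *Dll4* values was not tested. Of the OB markers, 9 of 9 had a lower mean log2 value on day 14, and 8 of 9 myeloid genes, 2 of 5 osteoclast genes and 1 of 5 osteocyte genes had a higher one. The share with a higher one was 46.5% over all genes tested. No gene of these lists had an adjusted p under 0.05 from limma.

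The summed level of the machinery around the receptors overlapped between the days. Of 47 other pathway genes, 41 passed the filter and 30 had a mean of at least 1 FPKM. They summed to 333 to 373 FPKM on day 10 and 343 to 378 FPKM on day 14, and their median log2 fold change was 0.08. None had an adjusted p under 0.05 from limma. An unadjusted p under 0.05 was found for 1 gene that was higher and 3 that were lower on day 14, or 4 of 41 against 10.0% of all genes tested, so their share was near the background. Without replicate 2 of day 14 the counts were 5 higher (*Pofut1*, *Poglut1*, *Adam17*, *Dtx3l* and *Maml2*) and 4 lower (*Dlk2*, *Dner*, *Neurl1a* and *Hes6*), against 12.8% of all genes. With all 6 samples, 2 of the 41 genes (*Adam17* and *Poglut1*) were higher and 1 (*Hes6*) lower on day 14 without overlap. Of all genes tested, 7.59% were higher and 6.67% lower in this way.

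The γ-secretase subunit gene *Ncstn* was the highest of the cleavage genes at 49.99 to 58.2 FPKM in the 6 samples (log2 fold change 0.08, 95% interval from -0.22 to 0.39, adjusted p = 0.894 from limma). *Adam17*, a metalloprotease that cleaves Notch and many other membrane proteins, had 19.8, 22.4 and 20.8 FPKM in the day 10 samples and 26.7, 27.6 and 31.8 FPKM in the day 14 samples. The days did not overlap, and the log2 fold change was 0.44 with a 95% interval from 0.11 to 0.78 (unadjusted p = 0.0155 and adjusted p = 0.379 from limma). Of the 10 cleavage genes, 5 had a higher and 5 a lower mean on day 14. Among the 5 glycosylation genes, which modify the receptor's extracellular repeats, *Poglut1* was the highest and had 14.8, 15.4 and 16.0 FPKM in the day 10 samples and 20.9, 17.1 and 20.8 FPKM in the day 14 samples, without overlap (log2 fold change 0.34, 95% interval from -0.01 to 0.69, adjusted p = 0.514 from limma). Without replicate 2 of day 14 its log2 fold change was 0.43 (95% interval from 0.09 to 0.78, adjusted p = 0.276 from limma).

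Of the ubiquitin ligases and endocytic adaptors, 12 of 13 passed the filter, with *Numbl* the highest at 20.3 to 26.5 FPKM. *Neurl1a*, a Neuralized ligase that acts on ligands, had 4.05, 2.04 and 3.18 FPKM in the day 10 samples and 1.13, 2.13 and 0.448 FPKM in the day 14 samples. Replicate 2 of day 14 overlapped with day 10, and the log2 fold change was -1.42 with a 95% interval from -2.64 to -0.20 (unadjusted p = 0.0271 and adjusted p = 0.433 from limma). Without that sample it was -1.90, with a 95% interval from -3.10 to -0.71 (unadjusted p = 0.00743 and adjusted p = 0.206 from limma). The unadjusted p from limma was 0.118 without replicate 1 and 0.0921 without replicate 3 of day 10, and 0.0837 without replicate 1 and 0.0822 without replicate 3 of day 14, where the log2 fold change was -0.89. Of the nuclear genes, all 7 passed the filter and none had an unadjusted p under 0.05. *Snw1*, a cofactor of transcription and splicing, was the highest at 16.1 to 22.6 FPKM. *Rbpj*, included here for its place in the pathway after its values were seen, had 2.47, 2.80 and 3.22 FPKM in the day 10 samples and 4.38, 2.501 and 3.45 FPKM in the day 14 samples (log2 fold change 0.25, 95% interval from -0.41 to 0.90, adjusted p = 0.840 from limma).

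Among the other Hes and Hey genes only *Hes6* and *Heyl* had a mean of at least 1 FPKM. *Hes6*, a family member known to counteract Hes1, had 22.3, 16.8 and 14.7 FPKM in the day 10 samples and 8.34, 14.6 and 8.79 FPKM in the day 14 samples. Replicate 2 of day 14 was the highest of its day and lay just under the lowest day 10 sample. The log2 fold change was -0.78 with a 95% interval from -1.37 to -0.19 (unadjusted p = 0.0161 and adjusted p = 0.384 from limma), and without that sample it was -1.03 (adjusted p = 0.157 from limma). The unadjusted p from limma was 0.0753 without replicate 1 of day 10, 0.0841 without replicate 1 of day 14 and 0.0608 without replicate 3 of day 14. *Heyl*, chosen here after its values were seen, was at 1.18 to 1.81 FPKM on day 10 and 1.08 to 3.34 FPKM on day 14. The 4 other ligands, of which *Dlk2* was the highest at 0 to 1.40 FPKM, had means under 1 FPKM, and *Dner*, a Delta-like transmembrane protein of neurons and the remaining gene with an unadjusted p under 0.05, was at 0.262 to 0.796 FPKM on day 10 and 0 to 0.295 FPKM on day 14.

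**Figure D5:**
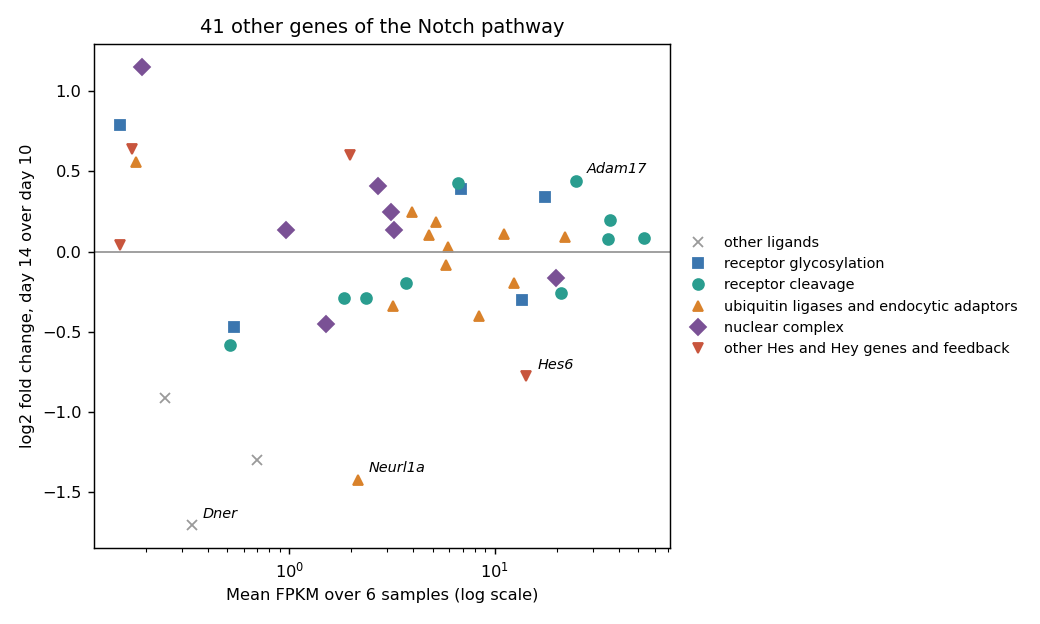
Log2 fold change, day 14 over day 10, of FPKM + 0.1 (vertical axis) against the mean FPKM over the 6 samples (horizontal axis, log scale) for the 41 other pathway genes that passed the filter, with a marker for each class. The genes lie on both sides of 0 with a median of 0.08, and the 4 genes named in the plot are those with an unadjusted p under 0.05.

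The genes whose profile over the 6 samples lay nearest to that of a member, by the root mean square difference of centred log2(FPKM + 0.1) among 11161 genes with a mean of at least 1 FPKM, were taken for *Hes1*, *Jag1* and *Notch2*. For *Hes1* they were *Haus8* (0.0945), *Zfp622* (0.101) and *Camk1d* (0.110), all with their highest value in replicate 2 of day 14. For *Jag1* they were *A430107O13Rik* (0.0932), *Gramd4* (0.0947) and *Srxn1* (0.0983), all highest in replicate 3 of day 14. *Srxn1*, which encodes sulfiredoxin, had 67.6, 90.5 and 98.3 FPKM in the day 10 samples and 122, 148 and 205 FPKM in the day 14 samples. For *Notch2* they were *Arih1* (0.0539), *Rnf44* (0.0659) and *Napg* (0.075). The distances are a description of these 6 samples.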

How the data were processed

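RNA-seq of sorted ECFP+ OBs was analysed for 3 samples of day 10 and 3 of day 14. The authors deposited FPKM per gene, 1 file per sample, computed with Cufflinks 2.2.1. Their single-end reads of 75 bases had been aligned by TopHat2 2.0.13 (with SAMtools 0.1.19 and Bowtie2 2.2.3) against mm10. The gene annotation and the treatment of multiply mapped reads are not given in the sources used here, and either can change the FPKM of genes with several transcripts. In 1 file, 25 symbols turned into dates were restored by position, none of them a Notch pathway gene. Members, gene lists and tests were chosen with earlier results of these data known. Genes with a mean above 0.1 FPKM over the 6 samples were compared on log2(FPKM + 0.1) with limma 3.58.1 in R 4.3.3 (eBayes with a mean-variance trend, day as the only factor), with Benjamini-Hochberg adjustment over all genes tested, and single values with two-sided exact permutation tests in SciPy 1.17.1. Adjusted p-values in the text are from limma unless named otherwise. The comparison was tested on simulated data. Mapped reads were estimated from low FPKM values of genes with 1 annotated transcript of 1500 to 8000 bases, with a fragment length of 215 bases, and estimated reads use the longest coding transcript. Gene positions are those of GENCODE vM21 (mm10) and start-site windows those of RefSeq (GRCm38.p6). Beside the members, the text names the highest gene of each pathway class, pathway genes with an unadjusted p under 0.05 and a mean of at least 1 FPKM, the first 3 markers of the lists that bear on a result, the nearest profiles of the 3 highest members, and, added after their values were seen, *Hes5*, *Rbpj*, *Heyl*, *Dner*, *Cspg4* and the genes behind counts of 7 or fewer. Alternatives were another pseudocount, filter, scaling and variance model, a replicate block, and leaving out each sample in turn. Same-numbered samples did not deviate together from their day means (r across genes from -0.00584 to 0.0887), so the numbers were not treated as pairs.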

Additional observations from a re-analysis of the deposited data

How the results depend on the processing

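The tests ran over 14 alternatives. The log2 fold change of *Notch3* kept its direction in 14 of 14 (0.87 to 1.503) and had an unadjusted p under 0.05 in 14. That of *Jag1* kept its direction in 14 of 14 (0.55 to 0.99) and had such a p in 13. The adjusted p from limma ran from 0.240 to 0.976 for *Notch3* and from 0.201 to 0.976 for *Jag1*. An unadjusted p under 0.05 was lost in 4 of 14 alternatives for *Hes6* (0.0520 without the mean-variance trend) and for *Neurl1a*, and in 1 for *Adam17* (0.0691 without that trend). No member and no other pathway gene had an adjusted p under 0.05 in any alternative. Leaving out 1 sample in turn, the count of members with an unadjusted p under 0.05 ran from 1 (without replicate 1 of day 10) to 3, that of other pathway genes from 1 (the same sample) to 9 (without replicate 2 of day 14), with 2 without replicate 1 or 3 of day 14, that of all genes from 948 to 2666, and the count of all genes with an adjusted p under 0.05 from 3 to 8. Without the mean-variance trend, 2 other pathway genes had an unadjusted p under 0.05. Leaving out 1 sample reversed the log2 fold change of *Hey1* (range -0.95 to 0.38), *Dll1* (-0.062 to 0.59) and *Hes1* (-0.68 to 0.022). It also reversed the day difference in share of *Notch4* (-0.486 to 0.884 percentage points), *Jag1* (-1.99 to 2.22), *Jag2* (-0.00100 to 0.434), *Dll1* (-3.47 to 0.371) and *Hey1* (-0.512 to 1.95). With a pseudocount before the shares, that of *Jag2* was -0.0689. The cause was not tested. With the replicate number as a block, 2 members had an unadjusted p under 0.05, *Notch3* at 0.00698 and *Jag1* at 0.00274, and 2130 of all genes did. The block changed no call of a member, and the samples share only a number. Depth limited the low members most, with at most 18.9 estimated reads per sample for *Notch4*, 4.35 for *Dll4* and 3.79 for *Jag2*.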
